A study of Mus musculus with 6 samples.

Results

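The genes described here encode the F-box proteins and the shared core of the SCF ubiquitin ligases. They are the rows of the deposited RNA-seq tables whose gene name is Fbxw, Fbxl or Fbxo followed by a number, plus Cul1, Skp1a, Rbx1, Skp2 and Btrc. This rule, which used no measured value and left out Ccnf, found 83 genes among 52006 named loci. They comprised 24 Fbxw, 18 Fbxl and 36 Fbxo genes, the 2 F-box genes Skp2 and Btrc, and the 3 core genes Cul1, Skp1a and Rbx1. The samples were mouse embryonic fibroblasts (connective-tissue cells grown from embryos), with 3 wild-type (WT) libraries and 3 libraries labelled as a knockout of Fbxw7. All cells grew in DMEM with fetal bovine serum and non-essential amino acids, and total RNA was sequenced. The labels name no strain, age, sex or passage, do not say how the allele was made, and do not say whether the replicates were separate embryos or cultures. The p-values below therefore measure the spread between these libraries, which may be technical.

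An SCF ligase is built on the scaffold CUL1, which holds the RING protein RBX1 near its C-terminus and the adaptor SKP1 near its N-terminus. RBX1 recruits the ubiquitin-charged E2 enzyme, and SKP1 docks an F-box protein that binds the substrate. F-box proteins are sorted by their substrate-binding part into FBXW (WD40 repeats), FBXL (leucine-rich repeats) and FBXO (other domains), and they share a common pool of CUL1 and SKP1. FBXW7 recognises phosphorylated degrons in MYC, cyclin E, JUN, NOTCH and SREBP, and the series asks what its loss does to the transcriptome. The question taken up here is whether mRNAs of other F-box genes, or of the core, were higher in the knockout.

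A few promoter sequences are shown first. They are RefSeq windows on build GRCm38.p6, running 5′ to 3′ on the gene's strand from 250 bases before to 50 bases after an annotated start. Fbxw7 has 3 annotated starts with a window each, at chr3:84815327-84815626, chr3:84863895-84864194 and chr3:84951961-84952260 on the plus strand. They are shown because the deposited Fbxw7 row is a sum over the whole locus, which holds all 3 starts. The first holds 24 CG dinucleotides and the others 1 and 6, and none held a motif searched below.
Fbxw7 start 1: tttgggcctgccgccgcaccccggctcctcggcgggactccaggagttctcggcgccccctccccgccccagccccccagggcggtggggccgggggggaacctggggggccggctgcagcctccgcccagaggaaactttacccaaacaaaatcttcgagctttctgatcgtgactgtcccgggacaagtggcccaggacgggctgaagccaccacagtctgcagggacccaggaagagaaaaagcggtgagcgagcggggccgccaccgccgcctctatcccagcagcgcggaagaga
Fbxw7 start 2: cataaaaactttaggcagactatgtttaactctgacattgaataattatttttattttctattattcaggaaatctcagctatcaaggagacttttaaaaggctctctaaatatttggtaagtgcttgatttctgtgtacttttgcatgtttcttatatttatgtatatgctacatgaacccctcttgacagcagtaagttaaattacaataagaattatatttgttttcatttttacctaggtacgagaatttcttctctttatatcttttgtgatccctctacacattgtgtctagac
Fbxw7 start 3: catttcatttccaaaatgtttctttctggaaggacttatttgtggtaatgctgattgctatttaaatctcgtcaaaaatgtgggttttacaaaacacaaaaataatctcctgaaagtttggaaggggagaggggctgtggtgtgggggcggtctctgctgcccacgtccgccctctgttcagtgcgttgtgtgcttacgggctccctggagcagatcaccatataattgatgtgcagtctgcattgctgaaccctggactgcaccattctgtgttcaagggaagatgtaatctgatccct

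The next windows belong to the member with the largest increase, Fbxo27 (chr7:28692599-28692898, plus strand), and to the called members that held a searched motif, Fbxo7 (chr10:86021904-86022203, plus strand) and Fbxo4 (chr15:3979524-3979823, minus strand). The searched motifs bind factors that FBXW7 targets: the E-box CACGTG, the AP-1 site TGANTCA and the sterol regulatory element TCACNCCAC, on both strands. Capitals mark the match, an E-box in Fbxo7 and an AP-1 site in Fbxo4, and the Fbxo27 window held none. Fbxo27 has 4 annotated windows, of which the first is shown and none held a motif, and Fbxo7 has 2, of which the one with the motif is shown.
Fbxo27: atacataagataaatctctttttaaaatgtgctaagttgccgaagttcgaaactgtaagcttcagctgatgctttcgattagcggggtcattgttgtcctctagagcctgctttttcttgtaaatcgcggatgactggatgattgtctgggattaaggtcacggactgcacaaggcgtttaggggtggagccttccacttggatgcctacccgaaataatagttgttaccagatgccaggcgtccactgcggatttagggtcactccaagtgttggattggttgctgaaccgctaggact
Fbxo7: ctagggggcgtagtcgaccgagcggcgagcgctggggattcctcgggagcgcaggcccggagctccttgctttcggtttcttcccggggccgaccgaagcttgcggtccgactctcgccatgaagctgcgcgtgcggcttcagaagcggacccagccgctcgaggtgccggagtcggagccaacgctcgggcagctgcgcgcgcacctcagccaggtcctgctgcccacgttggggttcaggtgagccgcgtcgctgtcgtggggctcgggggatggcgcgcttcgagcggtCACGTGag
Fbxo4: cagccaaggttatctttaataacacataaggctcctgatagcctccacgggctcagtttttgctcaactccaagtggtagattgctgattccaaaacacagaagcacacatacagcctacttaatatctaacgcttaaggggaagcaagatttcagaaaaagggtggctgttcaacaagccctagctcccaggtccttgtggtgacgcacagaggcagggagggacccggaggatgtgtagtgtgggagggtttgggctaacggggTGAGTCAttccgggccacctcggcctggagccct

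Of the 83 members, 63 had a window in the RefSeq table, among them 49 that were tested and 8 that passed the test of genotype below. The E-box was in 1 of these 8 and in 5 of the 49 tested members, counting a gene with a match in any of its windows, against 8.09% of all 27025 genes with a window. The AP-1 site was in 1 of the 8 and 4 of the 49, against 8.97% of all genes. The sterol regulatory element was in none of the 8 and 2 of the 49, against 1.44% of all genes. A match only says that these letters are in the window.

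Per library, the deposited estimated fragments summed to between 55720127 and 64198435, or between 51152356 and 70625735 before a scaling factor that the tables carry. Levels are given as CPM, fragment counts relative to the library total after TMM normalization (a scaling that assumes most genes are alike between libraries). The median squared difference per gene between replicates 1 and 2 of a genotype was 6.56 to 7.42 times that of sampling noise. Between replicate 3 and either of them it was 26.7 to 42.6 times. Replicate 3 therefore stood apart in both genotypes, and counts are also given without it. Of 11 fibroblast markers tested, Dcn was higher and Vim and Prrx1 were lower in the knockout, and these 11 summed to 30680 to 40950 CPM in the WT libraries against 32060 to 39110 CPM in the knockout. Endothelial markers summed to 6.46 to 9.27 CPM in the WT libraries against 0.614 to 1.42 CPM in the knockout, and both tested ones, Kdr and Tek, fell. Of macrophage and blood markers, 2 of 6 were tested and Cd68 fell, with sums of 1.51 to 2.26 CPM in the WT libraries against 0.631 to 1.36 CPM in the knockout. The neural marker Nes rose, with list sums of 1.23 to 3.29 against 8.96 to 13.5 CPM. No epithelial or skeletal muscle marker reached the count filter, and Krt8, Krt14, Myod1, Adgre1 and Sox2 were at 0 in all libraries. Xist, which is transcribed from the inactive X chromosome, was at 1.47 ± 1.09 CPM in the WT libraries against 911 ± 126 CPM in the knockout ones (mean ± SD, n = 3). The Y-linked Ddx3y was at 95.9 ± 13.8 and 30.4 ± 6.01 CPM. No member lies on a sex chromosome, but the sex composition of the cells and the genotype cannot be told apart in this design. The part of these differences in the results below was not tested. In such bulk RNA, fewer cells of a kind and less RNA per cell cannot be told apart either.

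The targeted gene itself did not pass the test. Fbxw7 (chr3:84815268-84979198 on mm10, plus strand, from GENCODE M21) was at 29.5, 28.4 and 30.1 CPM in WT replicates 1 to 3. In the knockout replicates it was at 27.6, 27.4 and 24.1 CPM. Each knockout library lay below every WT library, but by little, with a mean of 89.8% of the WT level. The log2 fold change was -0.16 with a standard error (SE) of 0.10 and a 95% interval of -0.39 to 0.07 (edgeR quasi-likelihood test, Benjamini-Hochberg adjusted p = 0.332). The labels do not say which exons were removed, and a sum over the whole locus still counts a transcript that lacks an exon. This value is therefore no check of the deletion. On the deposited FPKM scale, which divides fragments by the length of the transcripts assigned to them, Fbxw7 was at 7.01 ± 0.31 in WT and 5.83 ± 0.41 in the knockout (SD, n = 3). That is 83.1% of WT, a larger gap than in CPM. The fragments counted per unit of FPKM, relative to their WT mean, were 0.982 to 1.02 for Fbxw7 in the WT libraries and 1.04 to 1.06 in the knockout libraries, so the groups did not overlap. Over all genes tested the median of this ratio was 0.997 to 1.02 per library. Fbxw7 missed the threshold in each of the 20 alternative settings, with log2 fold changes of -0.27 to -0.06.

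None of the 3 core genes passed the test, at an edgeR adjusted p under 0.05. At an unadjusted p under 0.05 there were 2, and the DESeq2 Wald test called 1, beside 21.7% of all genes. The share of all genes at an unadjusted p under 0.05 was not determined, here or below. The scaffold Cul1 was at 111, 103 and 110 CPM in the WT libraries against 113, 101 and 125 CPM in the knockout ones, so the groups overlapped. Its log2 fold change of 0.07 had a 95% interval of -0.17 to 0.31 (adjusted p = 0.689), and it was -0.01 without knockout replicate 3. The adaptor Skp1a was at 181, 153 and 176 CPM in the WT libraries against 141, 140 and 134 CPM in the knockout ones. These groups did not overlap, with a log2 fold change of -0.30 ± 0.10 (SE) and an edgeR adjusted p of 0.0765. The RING subunit Rbx1 was at 45.9, 40.4 and 42.8 CPM in the WT libraries against 34.9, 38.4 and 35.4 CPM in the knockout ones, again without overlap. Its log2 fold change was -0.25 ± 0.09 (SE), with an edgeR adjusted p of 0.116. Relative to Cul1, the FPKM of Skp1a was 4.81 to 5.19 in the WT libraries and 2.96 to 4.27 in the knockout libraries. The same ratio for Rbx1 was 0.788 to 0.857 in WT and 0.625 to 0.853 in the knockout, where the ranges overlapped.

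Of the 83 members, 65 had enough fragments to be tested, and 12 of these passed the threshold. Among them 5 rose and 7 fell in the knockout. This is 18.5% of the tested members, beside 16.1% of all 16787 genes tested. By direction, 7.69% of the tested members were higher, beside 8.03% of all genes, and 10.8% were lower, beside 8.08%. The median log2 fold change was -0.004 over the members and 0.007 over all genes, and 32 members lay above 0 and 33 below. The WT and knockout libraries did not overlap for 29 members, 11 higher and 18 lower. That is 44.6% of the tested members, beside 37.7% of all genes. Those that were higher made up 16.9% of members and 19.2% of all genes, and those that were lower 27.7% and 18.4%. At least a 2-fold change with the test passed was seen for 3 members, Fbxo27, Fbxo32 and Fbxo15, beside 7.73% of all genes. Whether the members differ from other genes in these shares was not tested.

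By family the calls were mostly in Fbxo genes, which are also the most numerous. Of 34 tested Fbxo genes, 4 rose and 6 fell, or 29.4% called, beside 16.1% of all genes. Of 17 tested Fbxl genes, Fbxl5 alone (5.88%) passed the test, and it rose. Among the 9 tested Fbxw genes the locus of Fbxw10 fell (11.1%), and it is shared with Trim16. Neither Skp2 nor Btrc passed, although both had an unadjusted p under 0.05 and DESeq2 called 1 of them, beside 21.7% of all genes. Whether the families differ from each other was not tested.

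**Figure D1:**
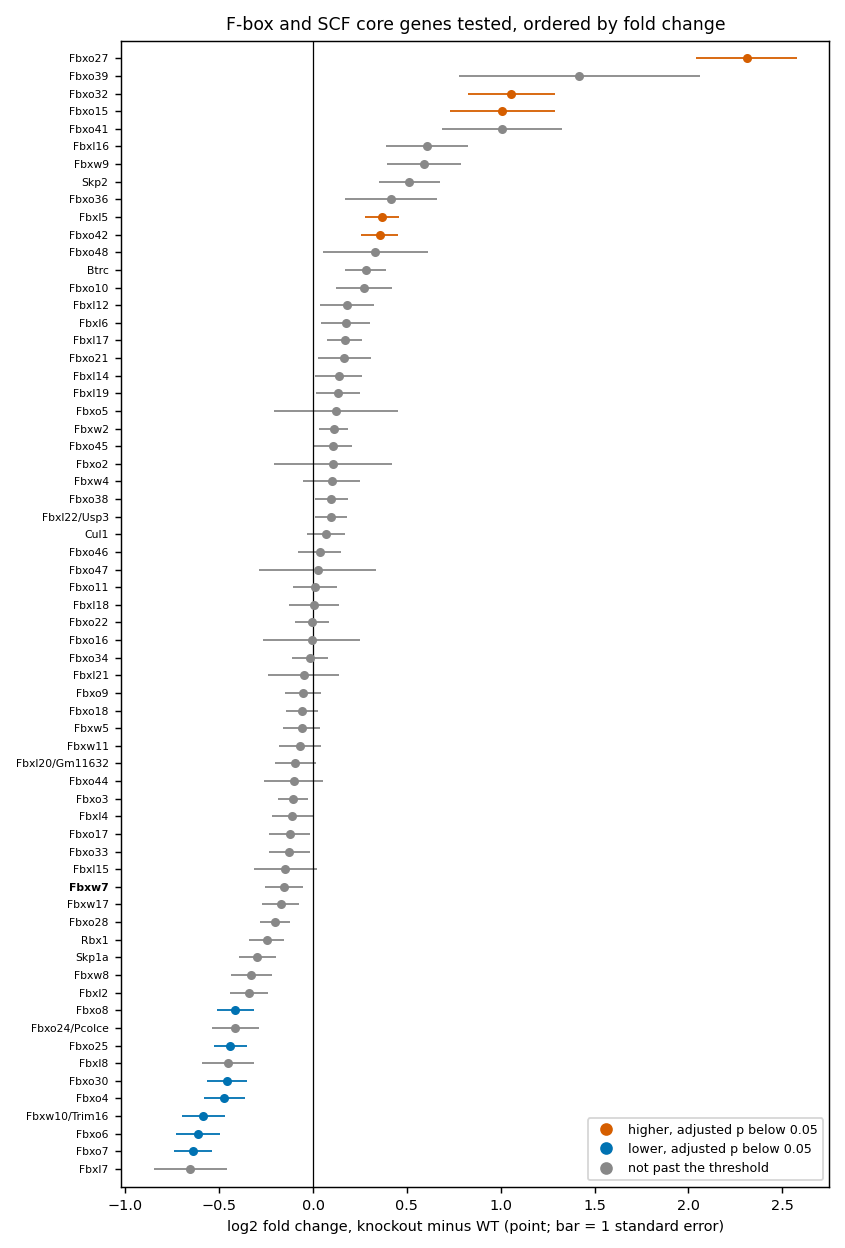
Log2 fold change (knockout minus WT, x axis) of 64 tested F-box and SCF core genes, ordered by size, with 1 standard error to each side; orange marks the 5 genes that rose, blue the 7 that fell and grey those that did not pass the threshold. Fbxo27 stands at 2.31 at the top, and Fbxw7 lies among the grey genes at -0.16.

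Fbxo27 had the largest increase among the members. It encodes a receptor that binds N-linked glycans and marks glycoproteins exposed on damaged lysosomes, and it lies at chr7:28692849-28699338. Its level was 0.706, 0.664 and 0.409 CPM in the WT libraries against 2.62, 3.46 and 2.75 CPM in the knockout ones. Every knockout library was above every WT library, with a mean 4.97 times the WT mean. The log2 fold change was 2.31 ± 0.27 (SE), with an edgeR adjusted p of 0.0018. It passed in all 20 alternative settings, which none of the other 11 called members did, with adjusted p-values of 2.15e-12 to 0.0332. In length-scaled terms it remained a low transcript, at 0.320 ± 0.082 FPKM in WT and 1.73 ± 0.54 in the knockout (SD, n = 3).

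The F-box genes grouped with Fbxo27 by role did not move with it. Fbxo6, whose protein acts on misfolded glycoproteins that leave the endoplasmic reticulum, fell. It was at 36.9, 36.6 and 29.3 CPM in the WT libraries against 21.4, 22.9 and 23.0 CPM in the knockout ones, without overlap. Its log2 fold change was -0.61 ± 0.12 (SE), with an edgeR adjusted p of 0.0133. Fbxo44 and Fbxo2 lie next to Fbxo6 on chromosome 4, and Fbxo17 lies next to Fbxo27 on chromosome 7. Fbxo2 (1.08 ± 0.29 and 1.17 ± 0.34 CPM), Fbxo17 (17.7 ± 1.44 and 16.2 ± 0.27 CPM) and Fbxo44 (10.1 ± 1.18 and 9.40 ± 1.36 CPM) overlapped between WT and knockout (SD, n = 3). Of these 5 genes 1 thus rose, 1 fell and 3 did not pass.

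Fbxo32 encodes atrogin-1, the F-box protein of muscle atrophy and a target gene of FOXO factors. It was at 61.2, 59.6 and 68.8 CPM in the WT libraries against 158, 153 and 82.2 CPM in the knockout ones. Knockout replicates 1 and 2 were well over the WT libraries, whereas replicate 3 was only just above them. The mean was 2.08 times the WT mean, with a log2 fold change of 1.06 ± 0.23 (SE) and an edgeR adjusted p of 0.0211. It passed in 10 of 20 alternatives, and the call was lost without knockout replicate 1 or 2 or without WT replicate 1 or 2. Fbxo25, the closest relative of Fbxo32 in the family, moved the other way. It was at 90.5, 83.7 and 85.6 CPM in the WT libraries against 65.3, 66.8 and 59.4 CPM in the knockout ones, with no overlap. Its log2 fold change was -0.44 ± 0.09 (SE), with an edgeR adjusted p of 0.0149.

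Of the other F-box genes tied to muscle atrophy, Fbxo30 (MUSA1) fell, from 64.8, 61.7 and 66.0 CPM in WT to 47.1, 40.9 and 52.0 CPM in the knockout. The groups did not overlap, and the log2 fold change was -0.46 ± 0.11 (SE; edgeR adjusted p = 0.0264). Fbxo21 overlapped, at 83.9 ± 4.83 and 94.2 ± 17.2 CPM (SD, n = 3), and Fbxo40 was below the filter, with no fragments in any WT library. From a list of 12 FOXO and atrophy genes, 11 were tested. Bnip3 (mitophagy receptor, log2 fold change 1.73) and Ddit4 (an inhibitor of mTORC1, 0.57) rose. Trim63, the RING ligase MuRF1 that is usually induced together with atrogin-1, fell by 1.98 from an already low 0.387 ± 0.078 CPM, and Sesn1 fell by 0.64, all on the log2 scale. The edgeR adjusted p-values of these 4 genes were 0.000695, 0.0101, 0.013 and 0.0473. The list therefore held 2 genes that rose and 2 that fell, with a median of -0.12, and these 4 made up 36.4% of the tested genes, beside 16.1% of all genes. Without WT replicate 1, 1 gene rose. No gene of it fell past the threshold without knockout replicate 1 or WT replicate 1, and 1 did without replicate 2 of either genotype or knockout replicate 3, while 3 did without WT replicate 3.

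Fbxl5, the iron-sensing receptor that marks the iron regulatory protein IRP2 (Ireb2) for degradation, rose modestly. Its levels were 53.0, 51.3 and 51.4 CPM in the WT libraries against 69.9, 61.3 and 69.9 CPM in the knockout ones. No knockout library fell into the WT range, and the log2 fold change was 0.37 ± 0.09 (SE; edgeR adjusted p = 0.0308). The mRNA of its substrate, Ireb2, was at 130 ± 7.12 CPM in the WT libraries against 104 ± 22.2 CPM in the knockout ones (SD, n = 3; edgeR adjusted p = 0.188). Fbxo42, a kelch-repeat F-box protein reported to act on p53, was at 40.2, 45.0 and 40.0 CPM in the WT libraries against 56.6, 54.4 and 49.2 CPM in the knockout ones. The groups did not overlap, but the log2 fold change of 0.36 ± 0.10 (SE) was near the threshold (edgeR adjusted p = 0.0462) and passed in 8 of 20 alternatives. Leaving out any library other than knockout replicate 3 ended that call.

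Fbxo15 is best known as a marker transcript of pluripotent cells. In these fibroblasts it was very low, at 0.689, 0.398 and 0.458 CPM in the WT libraries against 1.03, 1.04 and 1.04 CPM in the knockout ones. The log2 fold change was 1.01 ± 0.28 (SE; edgeR adjusted p = 0.0462), with no overlap. The call was lost without any knockout library in turn and without WT replicate 2 or 3. Of the pluripotency markers, Nanog was at 0.475 ± 0.065 and 0.602 ± 0.191 CPM (SD, n = 3) and did not pass the test, while Zfp42 and Lin28a were at 0 in all libraries.

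**Figure D2:**
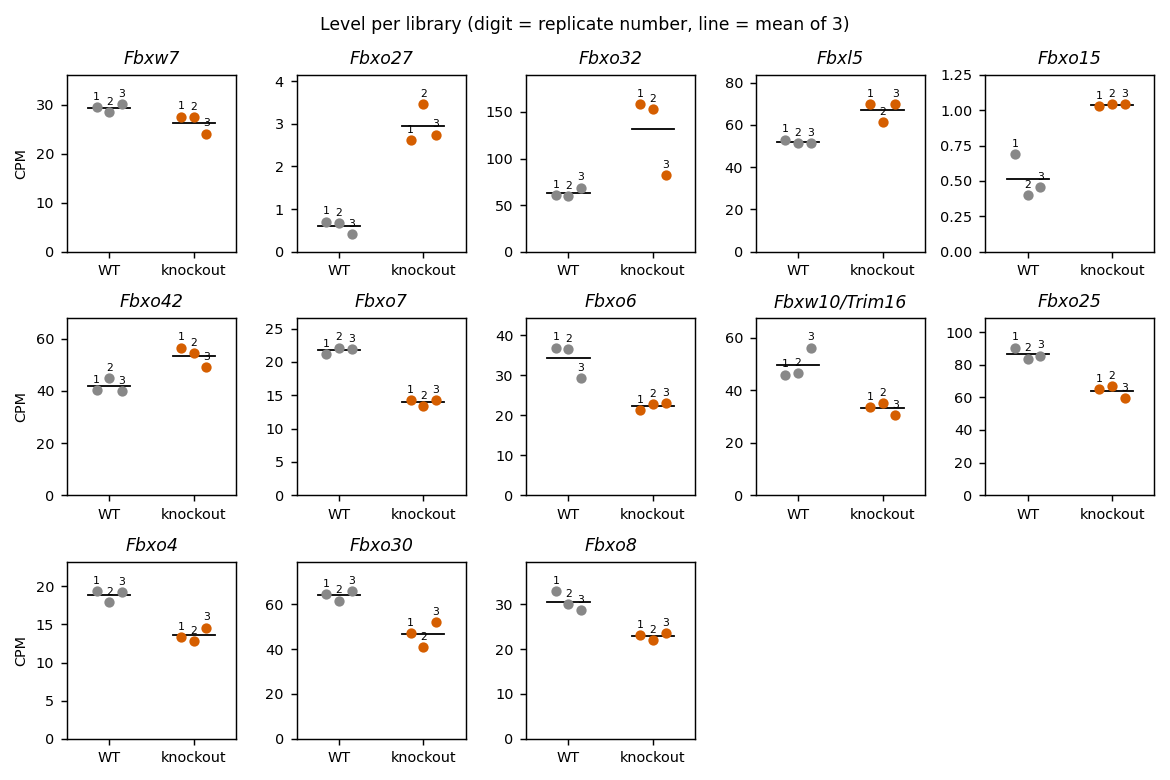
Level in CPM (y axis, from 0) of Fbxw7 and of the 12 members that passed the test, in WT (grey) and knockout (orange) libraries; digits give the replicate number and lines the mean of 3. The genotypes separate for all 13 genes shown, and knockout replicate 3 of Fbxo32 lies just above WT.

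Fbxo7 had the smallest adjusted p among the members that fell. Its protein binds the proteasome regulator PI31, helps to assemble cyclin D with CDK6 and takes part in the removal of damaged mitochondria. The gene lies at chr10:86021972-86051873. It was at 21.1, 22.1 and 21.9 CPM in the WT libraries against 14.2, 13.3 and 14.2 CPM in the knockout ones, 64.2% of the WT mean. The spread within each genotype was far smaller than the gap, with a log2 fold change of -0.64 ± 0.10 (SE; edgeR adjusted p = 0.00575). It passed in 19 of 20 alternatives; the exception was the sum of replicates 1 and 2. An antisense transcript, A230060F14Rik, overlaps 5.08% of the exon bases of Fbxo7, and at 0.387 and 0.21 CPM its level was small beside it. Fbxl4, another F-box gene with a mitochondrial role, overlapped between the genotypes at 20.2 ± 1.59 and 18.7 ± 0.915 CPM (SD, n = 3).

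Fbxo4 and Fbxo8 also fell. Fbxo4 acts with αB-crystallin on cyclin D1, and was at 19.4, 17.96 and 19.2 CPM in the WT libraries against 13.4, 12.8 and 14.6 CPM in the knockout ones. Fbxo8, an F-box protein with a Sec7 domain that acts on the small GTPase ARF6, was at 32.9, 30.1 and 28.6 CPM in the WT libraries against 23.1, 22.1 and 23.6 CPM in the knockout ones. For both genes all 3 knockout libraries lay under all WT libraries. The log2 fold changes were -0.47 ± 0.11 for Fbxo4 and -0.41 ± 0.10 for Fbxo8 (SE), with edgeR adjusted p-values of 0.0251 and 0.029. These calls, and that of Fbxo30, were lost without knockout replicate 1 or 2 or without WT replicate 1 or 2. Those of Fbxo6, Fbxo25 and Fbxl5 were each lost without knockout replicate 1 and without WT replicate 1, and for Fbxo6 and Fbxl5 also without WT replicate 2.

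The locus that carries Fbxw10 fell as well, but its fragments cannot be assigned to that gene. It was deposited as 1 row with Trim16, whose exons overlap those of Fbxw10 on the same strand and whose protein acts in the autophagy of damaged lysosomes. The row was at 45.9, 46.5 and 56.2 CPM in the WT libraries against 33.6, 35.1 and 30.5 CPM in the knockout ones, with a log2 fold change of -0.58 ± 0.11 (SE; edgeR adjusted p = 0.0137). The genotypes did not overlap, and the call was lost without knockout replicate 1. Without the rows shared with another coding gene, 11 of 62 members passed, 5 higher and 6 lower. That is 17.7%, beside 16.1% of all genes. Fbxo24 likewise shares a row with Pcolce, a secreted enhancer of procollagen processing, and that row was at 965 ± 111 and 724 ± 62.4 CPM (SD, n = 3; edgeR adjusted p = 0.0615).

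Among the closest functional relatives of FBXW7, the pair of β-TrCP proteins encoded by Btrc and Fbxw11 also reads phosphorylated degrons through WD40 repeats. Neither gene passed the test; 1 of the 2 had an unadjusted p under 0.05, and DESeq2 called neither. Btrc was at 45.3, 45.8 and 38.6 CPM in the WT libraries against 54.3, 55.7 and 47.5 CPM in the knockout ones. All its knockout libraries were higher, with a log2 fold change of 0.28 and a 95% interval of 0.03 to 0.53 (edgeR adjusted p = 0.125). Fbxw11 was at 129, 133 and 146 CPM in the WT libraries against 138, 139 and 111 CPM in the knockout ones. These values overlapped, with a log2 fold change of -0.07 and a 95% interval of -0.33 to 0.19 (adjusted p = 0.717). Its sign was not stable, at 0.02 with scaling by library size only or without knockout replicate 3, and 0.08 when replicate 3 was left out of both genotypes. In that knockout library Fbxw11 had 1.45 times the WT mean number of fragments per unit of FPKM, and its FPKM there was 32.6, below the 50.7 to 70.6 of the other libraries.

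The other tested Fbxw genes behaved as follows. Fbxw8, which works with CUL7 as well as CUL1, was at 147, 162 and 161 CPM in the WT libraries against 125, 138 and 111 CPM in the knockout ones (log2 fold change -0.33; edgeR adjusted p = 0.0765). An antisense transcript, Gm9754, overlaps 33.4% of its exon bases but was at only 0.48 and 0.675 CPM. Fbxw9 was at 33.4, 36.2 and 32.5 CPM in the WT libraries against 58.3, 60.5 and 35.1 CPM in the knockout ones. Its knockout replicate 3 lay inside the WT range while replicates 1 and 2 lay well above it, and the log2 fold change was 0.59 ± 0.20 (SE; adjusted p = 0.0818). Fbxw2 was at 68.4 ± 1.48 and 73.8 ± 1.55 CPM (SD, n = 3), with a log2 fold change of 0.11 and a 95% interval of -0.07 to 0.29. Of the 9 tested Fbxw genes 0 rose by edgeR. At an unadjusted p under 0.05 there were 3 (Fbxw8, Fbxw9 and the Fbxw10 row), and DESeq2 called the same 3, beside 21.7% of all genes.

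Skp2, which degrades the CDK inhibitor p27, was higher in the knockout without passing the threshold. It was at 18.8, 16.7 and 25.2 CPM in the WT libraries against 28.2, 26.9 and 31.5 CPM in the knockout ones. The lowest knockout library was just above the highest WT library, replicate 3, and the log2 fold change was 0.51 ± 0.16 (SE; edgeR adjusted p = 0.0721). The p27 mRNA, Cdkn1b, rose by 0.77 on the log2 scale (edgeR adjusted p = 0.0211), from 60.5 ± 14.2 to 103 ± 3.52 CPM (SD, n = 3). Fbxo5, the EMI1 inhibitor of the anaphase-promoting complex, was at 9.41, 7.18 and 17.2 CPM in the WT libraries against 10.8, 9.97 and 16.1 CPM in the knockout ones. Here replicate 3 was the highest library of each genotype, and the genotypes overlapped. The summed CPM of 18 proliferation genes was likewise highest in replicate 3, at 571, 547 and 1000 in WT and 734, 757 and 882 in the knockout. None of these 18 genes passed the edgeR test, 2 had an unadjusted p under 0.05, and DESeq2 called 0. Without WT replicate 3, however, 6 of them rose by edgeR, where 18.5% of all genes were called. Without replicate 3 of both genotypes 11 rose and 1 fell, where 41.3% of all genes were called. Whether these genes differ from all genes in this was not tested. The part of proliferation in the values of Skp2 and Fbxo5 was not tested. Fbxl8, which acts on cyclin D3, was at 8.57, 8.60 and 7.37 CPM in the WT libraries against 5.71, 6.37 and 5.84 CPM in the knockout ones (log2 fold change -0.45; edgeR adjusted p = 0.061).

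The remaining members between an adjusted p of 0.05 and 0.10 were Fbxl2, Fbxl7, Fbxo41 and Fbxl16. Fbxl2, a membrane-anchored receptor, was at 17.0, 16.2 and 16.9 CPM in the WT libraries against 12.8, 13.4 and 13.2 CPM in the knockout ones (log2 fold change -0.34; edgeR adjusted p = 0.0594). Exons of Ubp1 overlap 11.2% of its exon bases on the opposite strand, and whether the counting used strand is not given in the sources used here. Fbxl7, which acts on Aurora A, had the lowest fold change of all members, -0.65 ± 0.20 (SE; edgeR adjusted p = 0.0597). Its WT libraries were widely spread, at 52.8, 62.2 and 35.7 CPM, and the knockout libraries were at 33.8, 33.7 and 28.2 CPM. Fbxo41, mainly known from neurons, was at 1.16, 1.28 and 0.801 CPM in the WT libraries against 2.75, 2.42 and 1.35 CPM in the knockout ones (log2 fold change 1.01; edgeR adjusted p = 0.0713). Fbxl16 was at 4.94, 5.48 and 3.84 CPM in the WT libraries against 7.55, 8.66 and 5.50 CPM in the knockout ones (log2 fold change 0.61; edgeR adjusted p = 0.0994). For all 4 genes, which were picked by their adjusted p, the genotypes did not overlap, as for 37.7% of all genes tested. For Fbxl16, however, WT replicate 2 and knockout replicate 3 were nearly equal.

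To compare genes with each other, the length-scaled FPKM was used for the 59 tested F-box genes in a row not shared with another coding gene. By mean FPKM over 6 libraries, Fbxw11 was the most abundant at 55.2, followed by Fbxo18 (the DNA helicase FBH1) at 49.1, Fbxo25 at 40.1, Fbxw2 at 37.7 and Btrc at 30.9. Fbxw11 and Fbxo18 cannot be ordered, since their libraries overlapped, and the same held for Fbxw2 with Btrc in the knockout. In knockout replicate 3, Fbxw11 (32.6 FPKM) was below Fbxw2 (36.9 FPKM). The place of Btrc holds only for the mean over both genotypes. Its WT mean of 28.6 FPKM was below those of Fbxo6 (34.6 FPKM) and Fbxw8 (32.7 FPKM). Fbxo25 was above Fbxw2 in WT (means of 46.5 and 37.2 FPKM) and below it in the knockout (33.6 and 38.3 FPKM), in each genotype without overlap, and in the knockout it overlapped Btrc. In all, 19 genes were at 20 FPKM or more, 26 from 5 to 20, 8 from 1 to 5 and 6 below 1. Fbxw7, at a mean of 6.42, ranked 41 of 59. It made up 0.762% to 0.859% of the summed F-box FPKM in the WT libraries and 0.724% to 0.7325% in the knockout libraries. That sum was 825, 875 and 848 in the WT libraries and 820, 842 and 739 in the knockout libraries. It was lowest in knockout replicate 3, and the genotypes overlapped. The 5 most abundant genes held 23.2% to 26.9% of it in all 6 libraries. Fbxo18 was nearly equal between genotypes, with a log2 fold change of -0.06 and a 95% interval of -0.26 to 0.14 (0.04 with scaling by library size only).

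**Figure D3:**
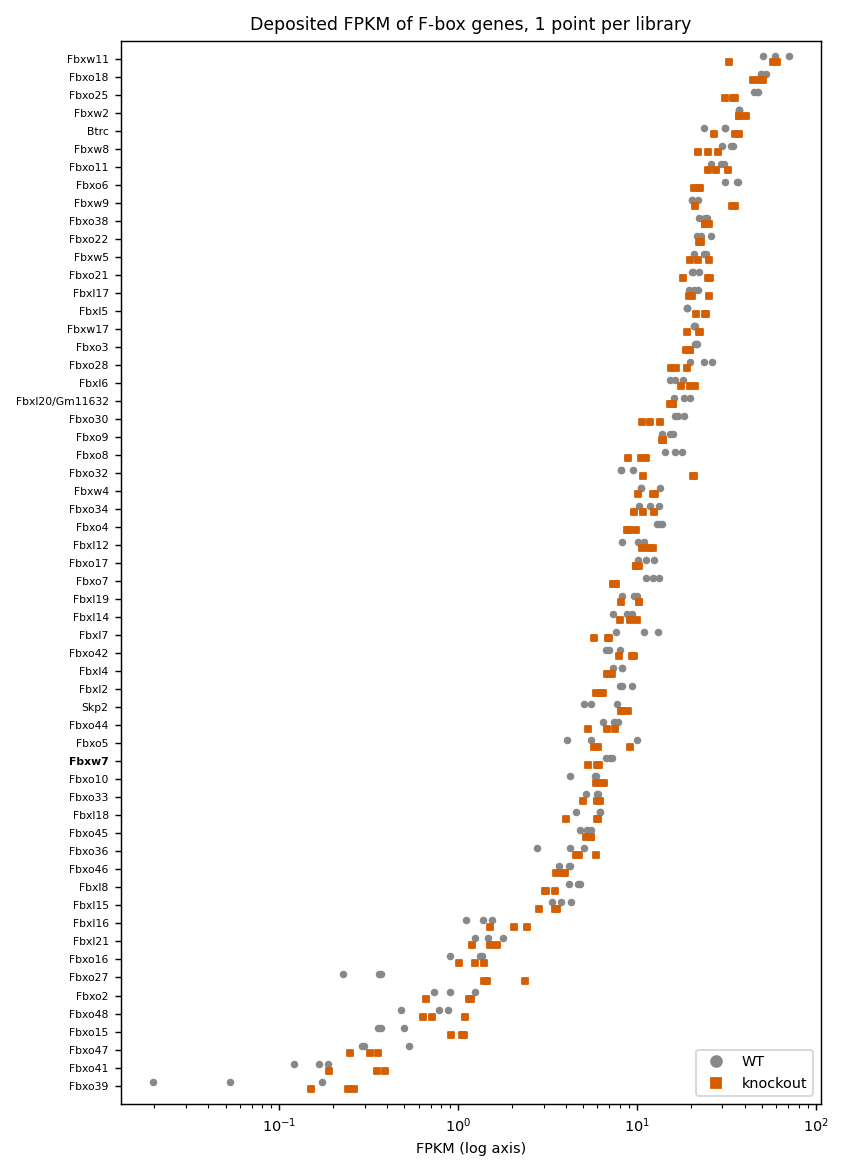
Deposited FPKM (x axis, log scale) of 58 tested F-box genes in a row not shared with another coding gene, ordered by their mean, with 1 point per library (grey circles WT, orange squares knockout). Fbxw7 lies in the lower part of the range; Fbxo27, Fbxo15 and Fbxo41 move right in the knockout at the low end of the range, and Fbxo32 moves right in its middle.

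Of the 24 Fbxw genes, 15 lie side by side on the minus strand of chromosome 9 between positions 109139447 and 109790670, a stretch of 651 kb. They were silent at this depth. No fragment was assigned to 14 of them in any library, and Fbxw18 had 1 fragment, in WT replicate 3. A count of 0 allows a level of up to 0.0404 to 0.0625 CPM depending on the library, taking 3 fragments as the limit and counting error only. Many of these genes are alike at their starts, and reads that match several of them were divided by an estimate. The windows of Fbxw14 (chr9:109287627-109287926, minus strand) and Fbxw28 (chr9:109339610-109339909, minus strand), the most alike pair, were 97% identical over 301 aligned columns, and capitals mark the sterol regulatory element, read here on the reverse strand.
Fbxw14: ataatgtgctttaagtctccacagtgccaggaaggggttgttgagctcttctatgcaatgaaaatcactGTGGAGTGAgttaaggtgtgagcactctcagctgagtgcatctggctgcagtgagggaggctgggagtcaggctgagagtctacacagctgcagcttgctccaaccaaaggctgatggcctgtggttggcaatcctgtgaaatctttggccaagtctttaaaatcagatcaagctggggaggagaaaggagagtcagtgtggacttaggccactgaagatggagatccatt
Fbxw28: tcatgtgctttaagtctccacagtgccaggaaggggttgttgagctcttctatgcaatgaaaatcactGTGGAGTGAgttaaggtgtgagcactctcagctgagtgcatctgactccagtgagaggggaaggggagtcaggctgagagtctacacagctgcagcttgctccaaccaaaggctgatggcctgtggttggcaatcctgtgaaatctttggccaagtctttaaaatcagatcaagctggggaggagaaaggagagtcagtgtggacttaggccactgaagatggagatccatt

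Over the 66 pairs among the 12 cluster genes with a window, identity ran from 47.4% to 97% with a median of 82.8%. The element was in 7 of these 12, against 1.44% of all genes with a window, but many of the windows are alike, with 38 of the 66 pairs at 80% identity or more, so these are not 7 separate observations. Fbxw23, annotated as a transcribed pseudogene, stood apart, at 47.4% to 50.8% identity with each of the other 11. Its window, at chr9:109543140-109543439, lies beyond the start of the GENCODE M21 gene (109516388-109534858, minus strand). The low identity may therefore reflect where the window was placed, which was not tested. The cluster windows were also poor in CG dinucleotides, with 0 to 4 per window and a median of 1. The windows of tested members held 0 to 56 with a median of 20, and all windows of the table had a median of 7. The other 3 members below the filter were Fbxl13, Fbxo40 and Fbxo43, the last encoding the oocyte protein EMI2, and none exceeded 0.137 CPM in any library.

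In the order below, the lists of genes around the ligase had 4.35%, 11.1%, 0% and 14.3% of their genes called. Over all genes tested the share was 16.1%, and whether these small lists differ from it was not tested. Of 23 genes of the NEDD8 cycle, CAND1 and the COP9 signalosome, which switch cullins on and off, 1 fell, Dcun1d3, a NEDD8 ligase (log2 fold change -0.31; edgeR adjusted p = 0.0389). The list's median was 0.01. Cand1, named after its values were seen, was just short of the threshold (-0.33; edgeR adjusted p = 0.0501). No gene of this list fell past the threshold without WT replicate 1, 2 or 3 or knockout replicate 1 or 2, and over all alternatives 0 to 4 did. Of 9 E2 and RBR partners of SCF ligases 1 fell, the E2 enzyme Ube2d1 (-0.31; edgeR adjusted p = 0.0451), and the median was -0.004. None of these fell without replicate 1 or 2 of either genotype, while 1 rose without replicate 3 of either. Of 7 other cullins none passed the edgeR test, none had an unadjusted p under 0.05 and DESeq2 called none, but 1 rose and 1 fell without knockout replicate 3. The most abundant of them by FPKM were Cul4a (227 ± 10.9 and 209 ± 26.4 CPM) and Cul3 (114 ± 2.62 and 104 ± 26.0 CPM; SD, n = 3). Among the kinases and deubiquitinases that act on FBXW7 substrates, 1 of 7 rose, Usp28, which removes ubiquitin from MYC and JUN (20.6 ± 1.09 to 30.6 ± 1.81 CPM; log2 fold change 0.57; edgeR adjusted p = 0.00952), and 2 of the 7 rose without WT replicate 3.

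Substrates are regulated as proteins, which these data do not measure, but their mRNAs can be described. Of 25 tested FBXW7 substrate genes, 3 rose and 1 fell, or 16% beside 16.1% of all genes, with a median of -0.11. The 3 that rose were Cebpa (log2 fold change 1.76; edgeR adjusted p = 0.00417), Junb (1.52; 0.0199) and Cebpd (0.80; 0.0438). Klf5, a growth-promoting zinc finger factor, fell by 1.42 (edgeR adjusted p = 0.00151). Myc itself was at 28.3, 29.6 and 68.3 CPM in the WT libraries against 97.0, 85.7 and 77.7 CPM in the knockout ones, and with an edgeR adjusted p of 0.0669 it did not pass. Of 20 genes whose products are degraded through other F-box members, 5 rose and none fell. The 4 with the smallest adjusted p were Bcl6 (degraded through FBXO11; log2 fold change 1.04), Atf4 (β-TrCP; 0.52), Per2 (β-TrCP; 1.09) and Cdkn1b (SKP2; 0.77). That is 25% of the list, and the median over all 20 was 0.07. The genes of those receptors, Fbxo11, Btrc, Fbxw11 and Skp2, did not pass the test. Leaving out replicate 1 or 2 of either genotype left 1 FBXW7 substrate gene that rose, while 4 fell without WT replicate 3. In the other list 2 rose without knockout replicate 1 or WT replicate 1, 3 without WT replicate 2 and 7 without WT replicate 3. Both lists were chosen with earlier results of these data in view.

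Substrate receptors of other cullins were set beside the F-box genes. Of 29 tested Klhl genes, which serve CUL3, 3 rose and 4 fell (24.1% beside 16.1% of all genes, median 0.04). Only 1 rose without replicate 1 or 2 of either genotype, and 3 to 6 fell with 1 library left out, most without WT replicate 3. Of 13 tested Dcaf genes, which serve CUL4, none passed by edgeR or DESeq2 and 1 had an unadjusted p under 0.05 (median -0.06); 1 rose without knockout replicate 3. Of 15 tested Asb and Socs genes, which serve CUL5, 1 rose and none fell (6.67%, median -0.06), and 1 fell without replicate 3 of either genotype. The F-box share was 19.4% (12 of 62), but it includes rows shared with another coding gene, which the other families leave out. Without such rows 59 F-box genes were tested, and 11 members passed. The differences between families were not tested.

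How many members passed depended on which libraries were used. Without replicate 3 of both genotypes, 28 of 65 members passed, or 43.1%, but so did 41.3% of all genes. Summing replicates 1 and 2 within a genotype, so that they count as 1 library, left 1 member past the threshold, or 1.54%, beside 2.71% of all genes. That member was Fbxo27. Leaving out knockout replicate 1 left 2 members, Fbxo27 and Fbxo7, or 3.08% beside 6.79% of all genes. Leaving out knockout replicate 2 left 6, or 9.23% beside 8.5%. Leaving out WT replicate 1 or 2 left 4 in each case, or 6.15%, beside 7.56% and 7.39% of all genes. Leaving out replicate 3 of either genotype gave 15, or 23.1%. Beside this were 19.1% of all genes without knockout replicate 3 and 18.5% without WT replicate 3. Over the 20 alternatives the widest gap was with the DESeq2 Wald test, which called 21 members, or 32.3%, beside 21.7% of all genes.

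**Figure D4:**
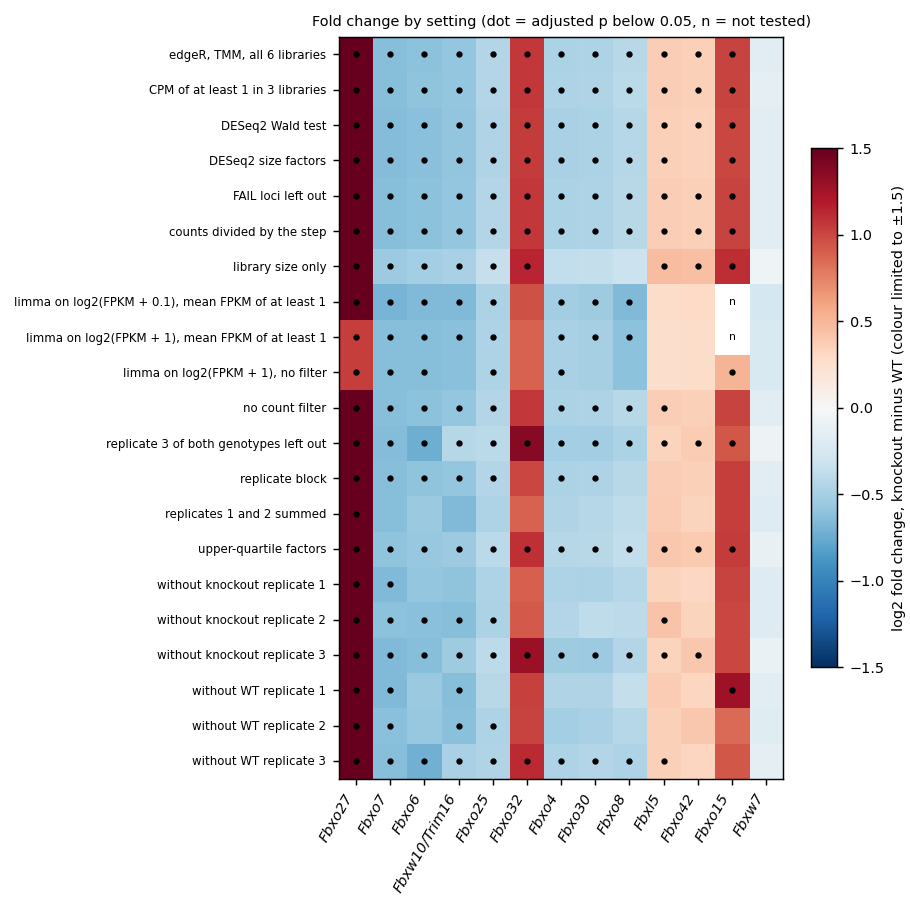
Log2 fold change (colour, limited to 1.5 in each direction) of the 12 members that passed the test and of Fbxw7 (columns) under the fit reported here and 20 alternatives (rows); a dot marks an adjusted p below 0.05 and n a gene that was not tested. Fbxo27 has a dot in every row and Fbxw7 in none.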

How the data were processed

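RNA was taken from the cells with Trizol and a column kit and made into Illumina TruSeq libraries, per the labels' protocols. Per the submitters' processing notes, the build was mm10 and the tools were Cufflinks 2.2.1, TopHat2 2.1.1, deepTools and SAMtools 1.5; annotation and strand use are not given in the sources used here. Deposited by the authors were estimated counts (expected fragments per locus) and FPKM (fragments per kilobase of transcript, relative to the library total), with the layout of Cufflinks tables per the file headers. Each deposited estimated count column was scaled by 1 factor, and among values of at most 1000 fragments, 88.9% to 89.5% were whole multiples of it (tolerance 0.05). Reads shared between gene copies were divided by an estimate.

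Of 53323 loci, 1317 without a name and 9 named loci marked HIDATA, where estimation was skipped, were left out. The rounded estimated counts went into edgeR 4.0.16 under R 4.3.3 (filterByExpr, TMM, robust quasi-likelihood fit, genotype only, two-sided), with Benjamini-Hochberg adjustment over 16787 genes and a threshold of 0.05. A standard error is the absolute log2 fold change over the square root of its F value. Alternatives were DESeq2 1.42.0, limma 3.58.1 on log2(FPKM + 1) or log2(FPKM + 0.1), other scalings and filters, and libraries left out or summed. Positions came from GENCODE M21, with Fbxo18 matched through RefSeq as Fbh1.

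The text gives in full Fbxw7, the core genes, Skp2, Btrc and Fbxw11, members with an adjusted p up to 0.10 and the 5 most abundant F-box genes. From each pathway list it names up to 4 genes past the threshold, smallest adjusted p first; where none passed, it names those of highest FPKM. Myc, Ireb2, Nanog and members outside this rule were chosen after their values were seen. The members, the gene lists and the grouping of members by role were chosen with earlier results of these data known. Fragments carried no molecular identifiers, so limits on counts of 0 cover counting error only. For 1 member the values are not reported here, although the counts include it.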

Additional observations from a re-analysis of the deposited data

How the results depend on the processing

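Over 20 alternatives, each fitted across all genes, Fbxw7 stayed below 0 and short of the threshold, and Fbxo27 passed in every one. The number of genes called, 2705 in the reported fit, was 1615 with limma on log2(FPKM + 0.1), 1562 on log2(FPKM + 1) and 1182 on log2(FPKM + 1) without a filter, 6993 when replicate 3 was left out of both genotypes and 484 when replicates 1 and 2 were summed. It ranged from 1169 to 3282 with 1 library left out. Members higher, 5 in the reported fit, were 8 with the DESeq2 Wald test, 9 with scaling by library size only, 1 with limma at either pseudocount and 2 without its filter, 3 without a count filter, 13 when replicate 3 was left out of both genotypes and 1 with replicates 1 and 2 summed. With 1 library left out they ranged from 1 to 8. Members lower, 7 in the reported fit, were 13 with the DESeq2 Wald test, 4 with scaling by library size only, 4 with limma without a filter, 15 when replicate 3 was left out of both genotypes and 0 with replicates 1 and 2 summed, where edgeR left 1 member in all. With 1 library left out they ranged from 1 to 10. The share of all genes called, with that of members in brackets, was 16.1% (18.5%) in the reported fit. It was 21.7% (32.3%) with the DESeq2 Wald test, 17.8% (20%) with library size only and 9.55% (14.5%) without a count filter. For limma it was 12.3% or 11.9% (15.3% for both) with the filter and 4.28% (8.7%) without. Leaving out replicate 3 of both genotypes gave 41.3% (43.1%), and summing replicates 1 and 2 gave 2.71% (1.54%). The cause of these shifts was not tested. Leaving out a library or summing also leaves fewer samples in the fit.

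Scaling by library size only shifted all genes upward, with a median of 0.10 in place of 0.007, and moved the higher share of all calls from 49.8% to 65.7%; with limma on filtered FPKM that share was 37.6%. Signs reversed for Cul1, whose log2 fold change was -0.0139 to 0.14 with 1 library left out and lowest without knockout replicate 3. They also reversed for Fbxw11, at 0.0237 with library size only and 0.0809 when replicate 3 was left out of both genotypes. With 1 library left out Fbxw11 was at -0.129 to 0.0214, highest without knockout replicate 3. Fbxo18 was at 0.0377 with library size only. None of these 3 genes passed in the reported fit.

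The replicate numbers were not taken as pairs: deviations from the group means correlated at 0.024 to 0.098 between libraries of the same number and at -0.123 to 0.076 between different numbers. With the replicate number as a block, 2356 genes (14%) and 12 members (18.5% of those tested) passed. Of these members 4 were higher and 8 lower, and 7 were among the 12 of the reported fit. Short of the threshold under the block were Fbxl5, Fbxo15, Fbxo32, Fbxo42 and Fbxo8 (edgeR adjusted p of 0.0527 to 0.0733). Past it under the block, and not in the reported fit, were Skp2, Fbxl7, Fbxl16, Fbxo41 and the Fbxo24 row (0.0356 to 0.0465). The log2 fold change of Fbxw7 under the block was -0.16.

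Depth limited the lowest members: Fbxo27, Fbxo15 and Fbxo41 rest on few fragments, and the 18 members below the filter give no comparison.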
